A study of Mus musculus with 8 samples.

Results

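The mitochondrial ribosomal protein (Mrp) genes described here were the rows of the count table whose symbol begins with *Mrpl* or *Mrps* followed by a digit, with a count in at least 1 library. There were 77 of them among 16994 genes, 48 with a large subunit symbol (*Mrpl*) and 29 with a small subunit symbol (*Mrps*), and 1 pseudogene, *Mrpl23-ps1*, was left out. Heart RNA came from male WT mice and male mice with whole-body TIGAR knockout (TKO) made in an earlier study, whose allele and strain are not given in the sources used here, and the comparison asks how these transcripts differ between the genotypes within each region. The 8 libraries were left ventricle (LV) of WT (WT-LV) and TKO (TKO-LV) and, after myocardial infarction (MI), the infarct zone (WT-I and TKO-I), border zone (WT-B and TKO-B), and remote zone (WT-R and TKO-R) of each genotype. MI was made by permanent ligation of the left anterior descending coronary artery at 16 weeks of age and the hearts were taken 4 weeks later. Each library of the infarct zone was a pool of 3 mice, the number of mice behind the others is not given in the sources used here, and those sources do not say whether the LV hearts had a sham operation. There was 1 library per genotype and region, so no spread between mice is known.

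Mitochondria carry their own ribosome, which translates the proteins encoded by mitochondrial DNA, all of them subunits of the respiratory chain and ATP synthase. Its RNAs come from mitochondrial DNA, whereas every one of its proteins is encoded in the nucleus, made in the cytosol, and imported. Some of these proteins have counterparts in bacterial ribosomes and others are found in mitochondrial ribosomes alone. The heart depends on oxidative phosphorylation, and inherited defects of several of these proteins cause cardiomyopathy in people.

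Total estimated counts per library lay between 27429240 and 33799249. Levels are given in CPM, the count of a gene scaled to the size of its library, after TMM scaling, which sets the bulk of genes equal between libraries. Its factors were 1.54 for WT-I, 1.26 for TKO-I, and 0.866 to 0.956 for the other 6. *Tigar*, the targeted gene, had 1066 to 2215 counts in the WT libraries and 51 to 87 in the TKO libraries. Summed over 11 cardiomyocyte markers, the level was 12057 CPM in WT-I, 24443 CPM in TKO-I, and 39521 to 52787 CPM elsewhere, and no marker was at 0. These markers were *Myh6*, *Myh7*, *Tnni3*, *Tnnt2*, *Tnnc1*, *Actn2*, *Atp2a2*, *Myl2*, *Myl3*, *Ryr2*, and *Pln*. The sum of 8 fibroblast markers was 8277 CPM in WT-I and 6856 CPM in TKO-I against 874 to 2995 CPM elsewhere, and that of 8 leukocyte markers 1247 and 935 CPM against 224 to 451 CPM. In such bulk tissue, fewer cardiomyocytes and less RNA per cardiomyocyte cannot be told apart. Intervals are 95% exact binomial intervals and cover counting error only.

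Transcripts of the Mrp genes were least abundant in the infarct zone of both genotypes and lower there in WT than in TKO. Summed over the 77 genes, the level was 3779 CPM in WT-LV and 4375 CPM in TKO-LV, 1613 CPM in WT-I and 2287 CPM in TKO-I, 3188 CPM in WT-B and 3721 CPM in TKO-B, and 3747 CPM in WT-R and 3749 CPM in TKO-R. WT-I was lowest, TKO-I next, and the remote zone libraries were nearly equal. As a share of all counts, which does not rest on TMM scaling, the genes held 0.249% in WT-I, 0.288% in TKO-I, and 0.305% to 0.379% in the others. As a share of counts outside mitochondrial DNA they held 0.314% in WT-I, 0.399% in TKO-I, and 0.491% to 0.598% in the others.

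**Figure D1:**
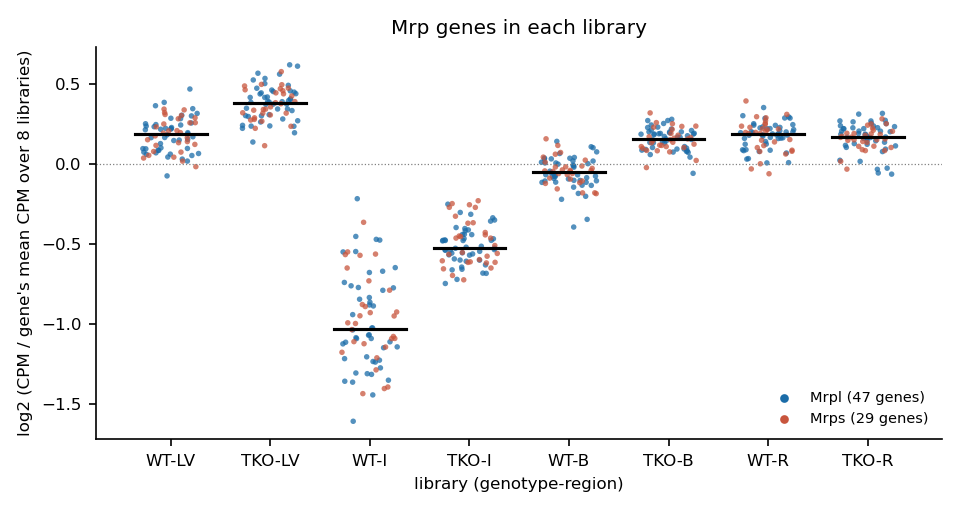
Level of each Mrp gene in each library, as log2 of its CPM over its own mean CPM across the 8 libraries; each point is 1 of 76 genes, blue for *Mrpl* and red for *Mrps*, and black bars are medians. The WT-I points sit lowest and spread widest, the TKO-I points come next, and the blue and red points overlap in every library.

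The genes of the 2 subunits kept close to one another in all 8 libraries. Per kilobase of coding sequence, the mean level of 50 large subunit genes, with *Mrps18a* and *Mrps30* placed there because their proteins belong to the large subunit, was 1.02 times that of 26 small subunit genes in WT-I, 1.05 times in TKO-I, and 1.07 to 1.11 times in the other 6 libraries. *Mrps36* was placed in neither subunit, since its protein is now known as a component of the 2-oxoglutarate dehydrogenase complex. Per kilobase, *Mrps21*, *Mrpl12*, and *Mrpl30* were among the 4 highest genes whether the principal transcript or its coding part gave the length, and *Mrpl32* and *Mrpl42* were among the 4 lowest on both. Over the 8 libraries, the mean level per kilobase of coding sequence was 306 CPM for *Mrps21*, 228 CPM for *Mrpl12*, 200.1 CPM for *Mrpl30*, and 14.9 CPM for *Mrpl32*. *Mrpl12*, which forms the stalk that recruits translation factors to the large subunit, had 146 and 179.9 CPM in the LV of WT and TKO, 53.7 and 88.1 in the infarct zone, 138 and 166 in the border zone, and 169 and 161 in the remote zone.

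To ask whether the infarct zone differed from the rest of the heart, it was set against the mean of LV, border zone, and remote zone with the quasi-likelihood test of edgeR over 12999 genes with genotype as block, in which the genotypes stand in for replicates of a region, so the test bears on these libraries and not on mice. Of the 76 Mrp genes that averaged 1 CPM or more, 74 were lower in the infarct zone and 0 higher at an adjusted p under 0.05, against 29.3% lower and 30.4% higher among all genes tested. All 29 genes with a small subunit symbol and 45 of 47 with a large subunit symbol passed. The median log2 difference was −0.96 for the Mrp genes, with a range from −1.33 to −0.33, and 0.02 for all genes. In 75 of the 76, both infarct libraries lay below all other 6 libraries, which was so for 31.1% of all genes, and in 74 the order was WT-I, then TKO-I, then the rest. With total counts in place of TMM, 41 of the 76 were called lower, 63 had a lower level, and the median log2 difference was −0.32. The share of all genes called with total counts is not given here, so the 41 has no background beside it. On that scale the median infarct/LV ratio of all genes was 1.80 in WT and 1.47 in TKO.

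The smallest p-values belonged to *Mrpl47*, *Mrpl46*, *Mrps18a*, *Mrpl49*, *Mrps28*, and *Mrpl50*. *Mrpl47* (ENSMUSG00000037531; chr3:32725397-32737605, minus strand, GRCm38), a protein near the exit tunnel for the nascent chain, had 24.9 and 28.6 CPM in the LV of WT and TKO, 12.1 and 15.3 in the infarct zone, 23.7 and 26.2 in the border zone, and 25.9 and 28.9 in the remote zone. Both infarct libraries lay below the other 6, with log2 difference -0.95 ± 0.08 (SE), adjusted p = 0.000399 by edgeR's quasi-likelihood test. *Mrps18a*, 1 of the 3 mouse versions of bacterial ribosomal protein S18 and the one that sits in the large subunit, had 59.4 and 67.2 CPM in the LV of WT and TKO, 22.2 and 31.3 in the infarct zone, 42.2 and 53.8 in the border zone, and 51.5 and 56.03 in the remote zone (log2 difference -1.04 ± 0.10 (SE), adjusted p = 0.000606, edgeR). The other versions, *Mrps18b* and *Mrps18c*, which sit in the small subunit, had log2 differences of -0.71 and -0.63, and *Mrps18c* stood at 0.01 with total counts. The 2 genes that did not pass were *Mrpl23* (log2 difference -0.64 ± 0.24 (SE), adjusted p = 0.0554, edgeR) and *Mrpl52* (log2 difference -0.33 ± 0.12 (SE), adjusted p = 0.0561, edgeR).

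Set against the LV of the same genotype, every one of the 76 genes was lower in the infarct zone in both genotypes. The median infarct/LV ratio was 0.440 in WT (quartiles 0.371 and 0.505) and 0.533 in TKO (quartiles 0.487 and 0.596), against 1.01 for all genes in each genotype. Counted after adding a prior of 2 counts, the infarct zone was at least 1.5-fold lower in 72 of 76 genes in WT (25.8% of all genes) and in 67 in TKO (20.2% of all genes). With total counts the medians were 0.782 in WT, with 62 genes lower and 14 higher, and 0.773 in TKO, with 72 lower and 4 higher, while the median of all genes shifted by 0.85 and 0.55 on the log2 scale from 1. Relative to the median of all genes, which no scaling changes, the Mrp median was 0.435 in WT and 0.527 in TKO. Across the 76 genes, the ratios of WT and TKO had a Pearson correlation of 0.743 and a Spearman correlation of 0.747 on the log2 scale, against 0.812 and 0.849 over all genes. They come from 4 different libraries, and genes are not independent replicates.

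*Mrpl55*, a protein found in mitochondrial ribosomes alone, had the lowest infarct/LV ratio in WT. Its level was 60.8 and 77.1 CPM in the LV of WT and TKO, 17.1 and 33.1 in the infarct zone, 45.4 and 62.3 in the border zone, and 59.5 and 62.7 in the remote zone. Its infarct/LV ratio was 0.282 (0.258 to 0.308) in WT and 0.429 (0.399 to 0.462) in TKO. *Mrpl28*, *Mrps35*, and *Mrpl14* followed in WT with ratios of 0.302, 0.302, and 0.308. In TKO the lowest were *Mrpl14*, a protein at the interface between the subunits, with 0.395 (0.368 to 0.423), *Mrpl28* with 0.407, *Mrpl30* with 0.424, and *Mrps16* with 0.427.

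At the other end stood *Mrpl52*, also without a bacterial counterpart, with 25.3 and 30.9 CPM in the LV of WT and TKO, 21.1 and 19.9 in the infarct zone, 22.8 and 23.6 in the border zone, and 29.2 and 23.5 in the remote zone. Its infarct/LV ratio was the highest in WT, at 0.835 (0.755 to 0.923), and it was the 1 gene whose lowest level was in TKO-I, where its ratio was 0.643 (0.5805 to 0.712). *Mrps6*, the counterpart of a bacterial small subunit protein, had 23.6 and 27.4 CPM in the LV of WT and TKO, 18.1 and 19.6 in the infarct zone, 20.5 and 22.9 in the border zone, and 30.6 and 23.5 in the remote zone. Its ratios were 0.767 (0.6899 to 0.853) in WT and 0.715 (0.643 to 0.795) in TKO, with overlapping intervals. *Mrpl27* and *Mrps17* came next in WT at 0.6999 and 0.683, and *Mrps10* and *Mrps5* were highest in TKO, at 0.765 (0.655 to 0.895) and 0.731 (0.6703 to 0.796). With total counts these highest ratios passed 1, at 1.48 for *Mrpl52*, 1.36 for *Mrps6*, 1.24 for *Mrpl27*, and 1.21 for *Mrps17* in WT, and at 1.11 for *Mrps10* and 1.06 for *Mrps5* in TKO.

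**Figure D2:**
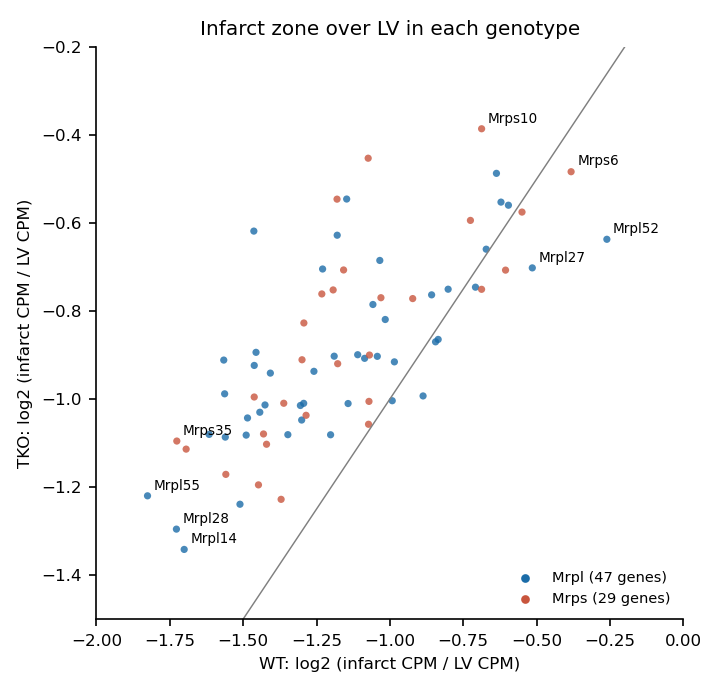
Infarct/LV ratio of each Mrp gene in WT (x axis) and TKO (y axis), both as log2 of a ratio of CPM; each point is 1 of 76 genes, blue for *Mrpl* and red for *Mrps*, and the line marks equal ratios. Every gene lies below 0 on both axes, most lie above the line, and *Mrpl52* and *Mrpl27* are among the few below it.

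The Mrp medians lay above those of the cardiomyocyte markers, which had median infarct/LV ratios of 0.232 in WT and 0.443 in TKO. The 13 protein-coding genes of mitochondrial DNA, whose messages the mitochondrial ribosome translates, had medians of 0.313 and 0.517. Genes of the cytosolic ribosome, 87 taken by symbol, had 1.14 in WT and 0.905 in TKO. Divided by the summed cardiomyocyte markers of the same library, the Mrp genes stood at 0.134 CPM per marker CPM in WT-I and 0.0936 in TKO-I, against 0.0716 to 0.0876 in the other 6. The part of cardiomyocyte content in the Mrp differences was not tested beyond these values.

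**Figure D3:**
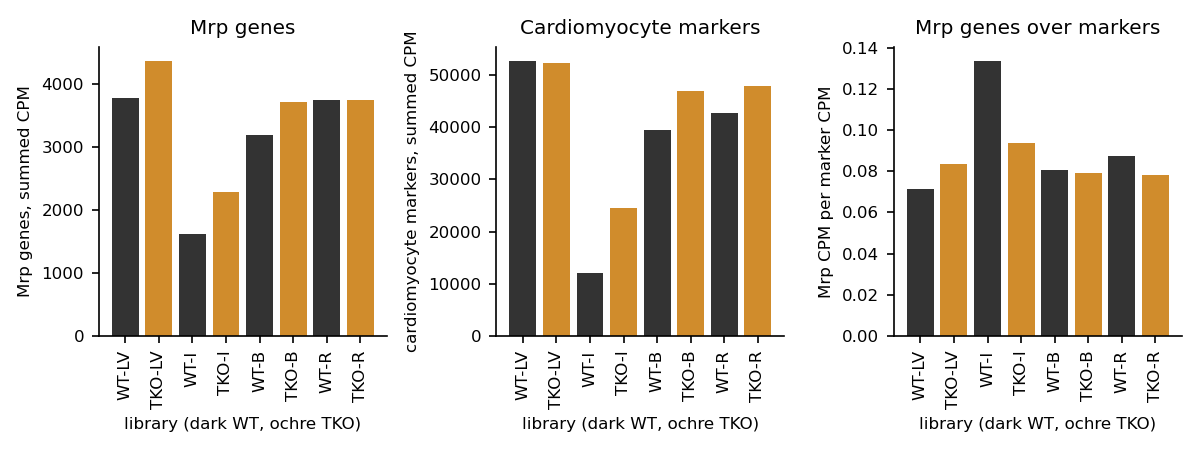
Summed CPM of the 77 Mrp genes, summed CPM of 11 cardiomyocyte markers, and the first divided by the second, with 1 bar per library (dark for WT, ochre for TKO). Both sums are lowest in WT-I (1613 and 12057 CPM) and next lowest in TKO-I (2287 and 24443 CPM), while the quotient is highest in WT-I.

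Between genotypes, the infarct zone held more of nearly every Mrp transcript in TKO than in WT. The TKO/WT ratio was above 1 in 75 of 76 genes, with a median of 1.40 (quartiles 1.26 and 1.53) against 1.005 for all genes. It reached 1.5-fold in 24 genes (10.04% of all genes) and 0 genes were 1.5-fold lower (6.19% of all genes). Genes with an *Mrpl* symbol had a median of 1.39 and those with an *Mrps* symbol 1.41. For 63 of the 76 genes, or 82.9%, the infarct zone was the region with the highest TKO/WT ratio, against 32.7% of all genes. With total counts the median was 1.15, 63 genes were higher and 13 lower, and the median of all genes moved by −0.29 on the log2 scale. Relative to the median of all genes it was 1.40 on either scale. The 11 cardiomyocyte markers had a median TKO/WT ratio of 1.96 in the same 2 libraries, the 13 mitochondrial DNA genes 1.59, the 8 fibroblast markers 0.810, and the 87 cytosolic ribosomal protein genes 0.866.

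The highest TKO/WT ratios in the infarct zone were those of *Mrpl55* at 1.93 (1.76 to 2.12), *Mrpl16* at 1.76 (1.61 to 1.92), *Mrps35* at 1.75 (1.61 to 1.902), and *Mrpl45*, which lies at the membrane side of the exit tunnel, at 1.73 (1.58 to 1.896). *Mrpl16*, the counterpart of a bacterial large subunit protein, had 57.3 and 63.98 CPM in the LV of WT and TKO, 19.3 and 34.02 in the infarct zone, 50.5 and 56.4 in the border zone, and 55.97 and 57.5 in the remote zone. Its level in TKO-I was still below that of every library outside the infarct zone. The lowest ratios belonged to *Mrpl52* at 0.942 (0.853 to 1.04), *Mrpl27* at 1.01 (0.917 to 1.11), *Mrpl48* at 1.04 (0.962 to 1.13), and *Mrpl17* at 1.08 (0.987 to 1.18). The intervals of these 4 reached 1.

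**Figure D4:**
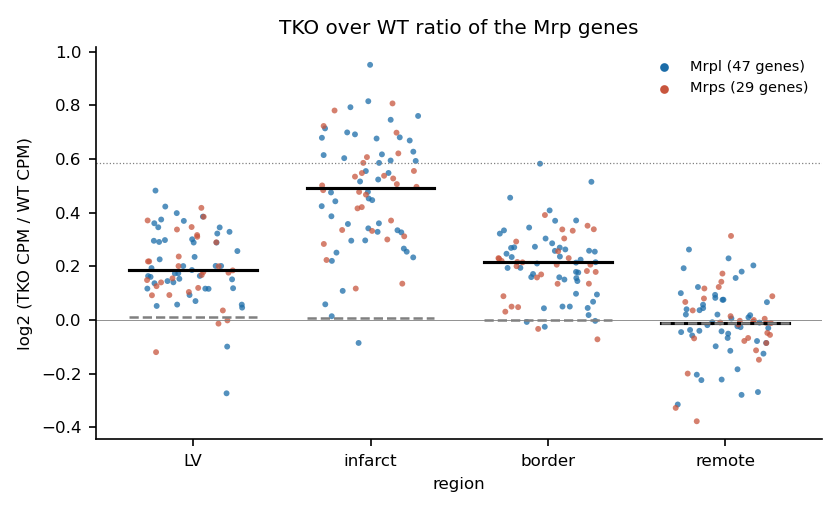
TKO/WT ratio of each Mrp gene in each region, as log2 of a ratio of CPM; each point is 1 of 76 genes, blue for *Mrpl* and red for *Mrps*, black bars are their medians, dashed grey bars the median of all 12999 genes, and the dotted line a 1.5-fold difference. The median is highest in the infarct zone (a ratio of 1.40), above that of all genes in the LV and border zone, and at it in the remote zone.

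The other regions showed smaller differences between genotypes. In the border zone the median TKO/WT ratio was 1.16 and 71 of 76 genes were higher, and in the LV it was 1.14, also with 71 higher. In the remote zone it was 0.993, with 33 higher and 43 lower. Of all 12999 genes, 6668 were higher in TKO for the LV, 6448 for the border zone, and 6230 for the remote zone. The 87 cytosolic ribosomal protein genes had an LV median of 1.11, near that of the Mrp genes, with 80 higher and 7 lower. Their border zone median was 0.970, and their remote zone median 0.865. Of all genes, 3.61% were 1.5-fold higher in the border zone, 5.71% in the LV, and 3.13% in the remote zone. No Mrp gene was 1.5-fold higher in these regions. In the LV the ratio was highest for *Mrpl34* at 1.397 (1.299 to 1.502), followed by *Mrpl41*, *Mrps34*, and *Mrpl49* at 1.34, 1.34, and 1.32, and it was below 1 in 5 genes. These were *Mrpl23*, the lowest at 0.827 (0.652 to 1.05), *Mrps5* at 0.9201, *Mrpl3* at 0.933 (0.881 to 0.989), *Mrps18b* at 0.9904, and *Mrps10* at 0.999, and the intervals of all but *Mrpl3* reached 1. In the border zone *Mrpl23*, which had few counts, was highest at 1.497 (1.15 to 1.95), followed by *Mrpl14* at 1.43 (1.33 to 1.53), and *Mrps10* was lowest at 0.951 (0.822 to 1.101). In the remote zone *Mrps2*, *Mrpl39*, *Mrpl4*, and *Mrpl38* were highest at 1.24, 1.199, 1.17, and 1.15, and *Mrps6* and *Mrps16* lowest at 0.7697 (0.697 to 0.8496) and 0.797 (0.707 to 0.897). In all 4 regions 30 of 76 genes, or 39.5%, were higher in TKO and 0 were lower in all 4, against 13.2% and 13.5% of all genes.

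Across the 4 regions, edgeR's quasi-likelihood test of genotype with region as block called 0 of 76 Mrp genes at an adjusted p under 0.05, against 0.0769% of all genes called higher. In this test the regions stand in for replicates, so its p-values and SE bear on these libraries and not on mice. At an unadjusted p under 0.05 there were 27, all higher in TKO, against 7.43% of all genes higher and 8.79% lower at that threshold, and DESeq2 called 1, *Mrpl28*. The log2 difference was above 0 in 75 of 76 genes, with a median of 0.21. *Mrpl49*, with the smallest p, had 32.4 and 42.7 CPM in the LV of WT and TKO, 16.3 and 21.3 in the infarct zone, 27.1 and 32.6 in the border zone, and 30.4 and 34.7 in the remote zone. It was higher in TKO in every region, by 0.31 ± 0.07 (SE) on the log2 scale, with an adjusted p of 0.184 by edgeR. The median log2 difference of the Mrp genes was 0.13 without the infarct zone, 0.22 without the border zone, 0.23 without the LV, and 0.29 without the remote zone. With total counts it was 0.11. A second fit asked whether the genotype difference of the infarct zone departed from that of the other 3 regions. It called 0 Mrp genes (0.00% of all genes called higher), with 22 at an unadjusted p under 0.05, all in the direction of a larger ratio in the infarct zone. Of all genes, 7.16% had such a p in that direction and 0.669% in the other, so the same direction prevailed among all genes. Of the Mrp genes, *Mrpl16* and *Mrps35* had the smallest p. That fit had 2 residual degrees of freedom and rests on 1 infarct library of each genotype, so the difference between regions is not established. DESeq2 called 0 there too.

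The border and remote zones lay nearer the LV than the infarct zone did, with most Mrp genes below the LV except in WT-R. The median border/LV ratio was 0.861 in WT, with 70 of 76 genes lower, and 0.856 in TKO, with 75 lower. The median remote/LV ratio was 0.9995 in WT, with 37 higher and 39 lower, and 0.867 in TKO, with 73 lower. All 12999 genes had median border/LV ratios of 1.003 in WT (6440 lower) and 0.992 in TKO (6685 lower). Their median remote/LV ratios were 1.01 in WT (6180 lower) and 0.988 in TKO (6826 lower). The 87 cytosolic ribosomal protein genes had border/LV medians of 1.03 in WT and 0.900 in TKO, and remote/LV medians of 1.09 and 0.849. By edgeR's quasi-likelihood test, 0 Mrp genes differed between border zone and LV and 0 between remote zone and LV, against 0.0462% and 0.00% of all genes called lower. At an unadjusted p under 0.05, 12 were lower in the border zone and 0 higher, against 6.54% and 11.4% of all genes, and 1 was lower in the remote zone and 0 higher, against 3.69% and 6.91% of all genes. DESeq2 called 0 in both. In the border zone the cardiomyocyte markers summed to 39521 CPM in WT and 46990 CPM in TKO, against 52787 and 52342 CPM in the LV.

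*Mrpl12*, of the stalk, had an infarct/LV ratio of 0.368 in WT and 0.4897 in TKO. *Mrpl11*, at the base of the stalk, had 0.463 and 0.536, and *Mrps12*, at the decoding site, 0.475 and 0.481. *Mrpl58*, a peptidyl-tRNA hydrolase that also sits in the large subunit, had 0.405 and 0.495. *Mrps30*, of the large subunit despite its symbol, had 0.426 and 0.5900, and *Mrpl41* and *Mrps34* had 0.453 and 0.476 in WT. *Mrps36*, not a ribosomal protein by present knowledge, had 0.339 in WT and 0.444 in TKO, both below the lower quartile of the group, and a TKO/WT ratio of 1.62 in the infarct zone, above the upper one.

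Inherited defects of the human counterparts of *Mrpl3*, *Mrpl44*, *Mrps14*, and *Mrps22* are known to cause cardiomyopathy. *Mrpl3* had 90.7 and 84.6 CPM in the LV of WT and TKO, 32.9 and 55.1 in the infarct zone, 77.99 and 91.1 in the border zone, and 87.7 and 95.5 in the remote zone. It was among the genes with a large genotype difference in the infarct zone, at 1.68 (1.56 to 1.797), although TKO was the lower in the LV. *Mrpl44* had 45.5 and 49.4 CPM in the LV of WT and TKO, 15.4 and 23.3 in the infarct zone, 38.3 and 40.9 in the border zone, and 42.9 and 43.1 in the remote zone, and a TKO/WT ratio of 1.51 (1.36 to 1.67) in the infarct zone. The same ratio was 1.33 (1.22 to 1.46) for *Mrps14* and 1.45 (1.25 to 1.67) for *Mrps22*. All 4 had their lowest level in WT-I and were lower in the infarct zone by the edgeR test, with adjusted p-values of 0.00281, 0.000912, 0.00216, and 0.00155. That test called 29.3% of all genes lower.

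Mitochondrial ribosomal proteins with other symbols and the factors around the ribosome were also lower in the infarct zone. *Dap3*, *Ptcd3*, *Chchd1*, *Aurkaip1*, and *Gadd45gip1*, whose proteins are part of the ribosome, were all 5 lower in the infarct zone by the edgeR test and higher in TKO-I than in WT-I, with a median TKO/WT ratio of 1.48. Among all 12999 genes, 29.3% were called lower in the infarct zone and 6604 were higher in TKO-I than in WT-I. *Ptcd3*, a small subunit protein that binds RNA, had 123 and 150.01 CPM in the LV of WT and TKO, 34.6 and 68.9 in the infarct zone, 98.7 and 122 in the border zone, and 109 and 122 in the remote zone, a TKO/WT ratio of 1.99 (1.86 to 2.12) in the infarct zone. *Dap3*, a GTP-binding small subunit protein, had a ratio of 1.57 (1.47 to 1.68), and *Chchd1* the lowest at 1.21 (1.11 to 1.32).

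Of 16 translation factors and regulators, 15 were lower in the infarct zone by the edgeR test, and all 16 were higher in TKO-I than in WT-I, with a median of 1.48. For comparison with the lists in this paragraph, 29.3% of all 12999 genes were called lower and 30.4% higher. Of the same 12999 genes, 6604 were higher in TKO-I than in WT-I. *Lrpprc*, which stabilizes mitochondrial messages, had 233 and 217 CPM in the LV of WT and TKO, 51.4 and 107 in the infarct zone, 152 and 200.5 in the border zone, and 165 and 203 in the remote zone. Its TKO/WT ratio was 2.09 (1.98 to 2.203) in the infarct zone, while *Mtfmt*, which formylates the initiator tRNA, had 1.11 (0.938 to 1.304). Of 17 mitochondrial aminoacyl-tRNA synthetases, which charge the tRNAs, 16 were lower in the infarct zone and all 17 higher in TKO-I, with a median of 1.49 and a range from *Sars2* at 1.01 (0.822 to 1.24) to *Cars2* at 2.04 (1.77 to 2.35). Of 25 ribosome assembly genes, 20 were lower in the infarct zone and 1 higher, with a median TKO/WT ratio of 1.27 and 24 above 1. *Mrm3*, a methyltransferase of the ribosomal RNA, had 1.898 (1.603 to 2.25), and *Mpv17l2* 0.895 (0.744 to 1.08). *Mrps12* and *Sars2*, which start 172 bases apart on opposite strands, had TKO/WT ratios of 1.26 and 1.01 there.

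Promoter sequence was examined because 74 of these genes were lower in the infarct zone together. RefSeq windows on GRCm38.p6, from 250 bases before to 50 after the start of a gene, existed for 68 of the 77 genes. Letters of the sites of 3 factor families linked to nuclear genes of mitochondria were searched on both strands, namely GCATGCGC for NRF1, CCGGAAG for the ETS family with GABPA, and AAGATGGC for YY1. The ETS letters were in 36.8% of Mrp genes, against 19.3% of 10092 genes tested with a window and 9.93% of 27025 genes in the RefSeq table. The YY1 letters were in 17.6%, 5.08%, and 3.19%, and the NRF1 letters in 10.3%, 5.77%, and 3.05%. In 31 of the 68 genes none of the 3 was found. These are letters in a window and not bound sites. The NRF1 letters can read on both strands over nearly the same bases.

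The median infarct/LV ratio in WT was 0.442 for 25 genes with the ETS letters and 0.432 for 42 without, 0.442 for 11 with the YY1 letters and 0.440 for 56 without, and 0.441 for 7 with the NRF1 letters and 0.440 for 60 without. In TKO the same medians were 0.533 and 0.535 for ETS, 0.529 and 0.535 for YY1, and 0.594 and 0.533 for NRF1, where 7 genes hold the letters. The windows of the 2 genes with the lowest infarct/LV ratio in WT, *Mrpl55* and *Mrpl28*, and of the 2 with the highest, *Mrpl52* and *Mrps6*, are shown first, and then *Mrpl39*, *Mrpl43*, and *Mrps11* as cases that hold the NRF1, ETS, and YY1 letters. Each line gives the 250 bases before the start, 5′ to 3′ on the strand of the gene, with matches to the 3 motifs in capitals. On GRCm38.p6 they lie at chr11:59202236-59202485 on the plus strand for *Mrpl55*, chr17:26123253-26123502 on the plus strand for *Mrpl28*, chr14:54426659-54426908 on the plus strand for *Mrpl52*, chr16:92058086-92058335 on the plus strand for *Mrps6*, chr16:84735245-84735494 on the minus strand for *Mrpl39*, chr19:45006443-45006692 on the minus strand for *Mrpl43*, and chr7:78782881-78783130 on the plus strand for *Mrps11*.
Mrpl55: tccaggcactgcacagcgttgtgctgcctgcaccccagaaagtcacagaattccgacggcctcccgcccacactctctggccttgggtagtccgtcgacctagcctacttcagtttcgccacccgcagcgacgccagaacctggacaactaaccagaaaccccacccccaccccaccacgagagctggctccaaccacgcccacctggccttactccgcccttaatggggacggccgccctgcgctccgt
Mrpl28: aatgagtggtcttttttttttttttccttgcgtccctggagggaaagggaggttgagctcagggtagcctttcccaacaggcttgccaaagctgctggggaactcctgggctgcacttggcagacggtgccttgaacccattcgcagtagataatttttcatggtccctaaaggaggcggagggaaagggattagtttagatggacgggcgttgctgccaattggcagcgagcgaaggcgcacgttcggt
Mrpl52: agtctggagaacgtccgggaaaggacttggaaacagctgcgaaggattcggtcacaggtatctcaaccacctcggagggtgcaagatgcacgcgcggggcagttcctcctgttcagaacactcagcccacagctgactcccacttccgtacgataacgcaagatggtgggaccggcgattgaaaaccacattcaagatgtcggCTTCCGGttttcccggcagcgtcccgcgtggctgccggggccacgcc
Mrps6: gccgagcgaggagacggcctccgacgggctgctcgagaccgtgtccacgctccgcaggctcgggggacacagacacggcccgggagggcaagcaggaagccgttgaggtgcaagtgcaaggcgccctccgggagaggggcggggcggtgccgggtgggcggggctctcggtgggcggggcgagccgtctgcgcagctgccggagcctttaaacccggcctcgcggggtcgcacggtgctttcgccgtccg
Mrpl39: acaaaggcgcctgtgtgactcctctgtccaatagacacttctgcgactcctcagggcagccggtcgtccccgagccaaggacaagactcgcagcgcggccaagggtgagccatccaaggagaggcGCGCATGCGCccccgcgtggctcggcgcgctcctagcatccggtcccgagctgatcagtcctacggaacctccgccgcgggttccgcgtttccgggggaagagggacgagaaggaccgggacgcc
Mrpl43: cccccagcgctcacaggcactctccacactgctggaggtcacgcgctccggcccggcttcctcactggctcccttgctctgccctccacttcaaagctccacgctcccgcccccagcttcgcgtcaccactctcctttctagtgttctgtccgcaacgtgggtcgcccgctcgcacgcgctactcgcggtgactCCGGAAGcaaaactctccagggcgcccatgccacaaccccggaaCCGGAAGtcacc
Mrps11: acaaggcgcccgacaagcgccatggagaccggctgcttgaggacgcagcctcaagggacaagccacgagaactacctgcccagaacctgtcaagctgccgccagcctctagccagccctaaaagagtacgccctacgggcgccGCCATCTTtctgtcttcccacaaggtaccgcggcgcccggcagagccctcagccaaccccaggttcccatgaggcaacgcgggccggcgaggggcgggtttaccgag

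Among other short motifs searched, a GC box (GGGCGG) was in 50% of the 68 Mrp genes and 68.1% of genes tested, an E-box (CACGTG) in 7.35% and 11.6%, and a TATA box (TATAAA) in 7.35% and 9.12%. *Mrpl55*, *Mrpl28*, and *Mrps6* held none of the 3 motifs shown in capitals in these bases. *Mrpl52* held the ETS letters on the opposite strand. *Mrpl39* held the NRF1 letters on both strands over the same bases, *Mrpl43* the ETS letters at 2 places, and *Mrps11* the YY1 letters on the opposite strand.

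Many of the genes share their start region with another gene. In the GENCODE M21 annotation (GRCm38), 33 of the 76 (43.4%) had a protein-coding gene starting within 1000 bases on the opposite strand, against 15.4% of 12697 protein-coding genes tested. *Mrps11* and *Mrpl46* were each other's neighbour, at 412 bases. In the 26 pairs with a neighbour outside the family and in the fit, the median infarct/LV ratio in WT was 0.447 for the Mrp genes and 0.719 for their neighbours, and the Mrp gene had the lower ratio in 21 of 26. In TKO the medians were 0.530 and 0.902, with 19 of 26. Genes with and without such a neighbour had median ratios of 0.453 and 0.410 in WT, and of 0.532 and 0.533 in TKO.

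The neighbours included genes with infarct/LV ratios in WT well below 1 and others above it. These examples were chosen after their values were seen. *Ndufs6*, a complex I subunit that starts 29 bases from *Mrpl36*, had an infarct/LV ratio in WT of 0.269 against 0.495 for *Mrpl36*. *Ndufb5*, another complex I subunit, had 0.301 against 0.485 for *Mrpl47*, and *Twnk*, the helicase of mitochondrial DNA, 0.269 against 0.552 for *Mrpl43*. *Fau*, of the cytosolic ribosome, had 1.44 against 0.503 for *Mrpl49*, *Mitd1* 2.17 against 0.351 for *Mrpl30*, and *Helq*, a DNA helicase, 1.49 against 0.657 for *Mrps18c*. *Mitd1* thus stood on the other side of 1 from *Mrpl30*, with a start 66 bases away.

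Some members are uncertain as genes. *Mrpl42* was under a mean of 1 CPM and was not tested, with 15 counts in WT-LV, 26 in TKO-LV, 0 in WT-I, 15 in TKO-I, 12 in WT-B, 12 in TKO-B, 19 in WT-R, and 31 in TKO-R. Its 0 in WT-I allows up to 3 counts, or 0.0709 CPM. *Mrpl23* had 102 to 165 counts per library, whereas the left-out pseudogene *Mrpl23-ps1* had 947 to 1397, and 95.5% of the 31-base words of the pseudogene also occur in other transcripts, mainly those of *Mrpl23*, so counts of this pair may have been split. *Mrpl53*, *Mrps34*, and *Mrps25* shared 84.4%, 73.8%, and 68.9% of their 31-base words with other genes, and the median over the 77 was 6.65%.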

How the data were processed

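RNA was sequenced from LV, infarct, border, and remote tissue of WT and TKO hearts. Each combination of genotype and region had 1 library, 8 in all, grouped by the labels. The deposited table holds estimated counts per gene, which the authors made by trimming reads with Trim Galore 0.6.5, quantifying transcripts with kallisto 0.46 against the mm10 transcriptome, and summing to genes with tximport, and which appear as whole numbers without normalization. The submitters' notes also name edgeR 3.34.1. Shared transcript sequence, as between a gene and its pseudogene, can divide reads between genes in such estimates. Depth was 27429240 to 33799249 counts per library, and precision was given by 95% exact (Clopper-Pearson) intervals on ratios of 2 counts, which cover counting error only.

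Counts were scaled by TMM (edgeR 4.0.16 in R 4.3.3) over 12999 genes that averaged 1 CPM or more. Ratios between 2 libraries have no test. Tests were edgeR's quasi-likelihood tests over all 12999 genes with Benjamini-Hochberg adjustment, on region plus genotype (3 residual degrees of freedom) and with an added infarct by genotype term (2 residual degrees of freedom). Those of genotype, of the infarct zone, and of the added term were also run on simulated counts drawn independently for each library. The outcome is not given here, so it is no check of the tests on these libraries. Alternatives were total counts, DESeq2 size factors, mitochondrial DNA genes left out, no filter, a minimum of 10 counts in every library, DESeq2 1.42.0, no region block, and each region left out. Lengths, positions, neighbours, and shared 31-base words came from GENCODE M21 (GRCm38), which may differ from the transcriptome the authors used, and promoters from RefSeq (GRCm38.p6).

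Members and lists were chosen with earlier results of these data known. Genes named were the 4 highest and 4 lowest by level per kilobase, by TKO/WT ratio in each region, and by infarct/LV ratio in each genotype (at least 50 counts in both libraries), the 6 with the smallest p per direction among genes that passed a test, genes listed by role, genes under 50 counts in a library, and up to 3 highest and 3 lowest of each other list. From these, those that bear on a comparison are printed.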

Additional observations from a re-analysis of the deposited data

How the results depend on the processing

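With 1 library per group, no value here has a replicate check. Counting error was wide for genes with few counts, such as *Mrpl23*, with 102 to 165 counts per library and a TKO/WT ratio in the LV of 0.827 (0.652 to 1.048). Total counts moved the Mrp medians most, since the TMM factors above 1 lower the CPM of the infarct zone libraries: TKO/WT ratios became 1.145 (infarct), 1.084 (border), and 0.9813 (remote), and infarct/LV ratios 0.7815 in WT and 0.7732 in TKO. Border/LV ratios became 0.9477 and 0.8819, and remote/LV ratios 1.038 and 0.8916, in WT and TKO. Without a filter the TKO/WT medians were 1.443 in the infarct zone and 1.148 in the LV, the infarct/LV medians 0.4168 in WT and 0.515 in TKO, and the remote/LV median 1.011 in WT. DESeq2 size factors gave a TKO/WT median of 1.172 in the border zone. Genes called lower in the infarct zone numbered 41 with total counts in edgeR and 74 to 76 under the other alternatives, and DESeq2 called 1 gene higher across regions where the other alternatives called 0. With total counts, named genes that were at least 1.5-fold lower in WT-I than in WT-LV passed 1 in that ratio for *Mrps18c* (1.167), *Mrpl24* (1.143), *Mrpl20* (1.175), *Mrpl48* (1.115), *Mrpl17* (1.019), and *Mrps10* (1.103), and among named genes called lower in the infarct zone the log2 difference turned positive for *Mrps18c* (0.01096), *Mrpl24* (0.1776), *Mrpl27* (0.07491), *Mrps5* (0.039), *Mrpl20* (0.001729), *Mrpl48* (0.07512), *Mrpl17* (0.01336), *Mrps17* (0.1185), *Mrps10* (0.1007), and *Mrps6* (0.2495). With the region block removed, 0 genes had an unadjusted p under 0.05 for genotype.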
